A study of Arabidopsis thaliana with 12 samples.

Results

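The regions described here are 205 bins of 100 bp in which *Arabidopsis thaliana* seedlings without a functional Pol V had more 24-nt siRNA than WT. They were chosen by level from the 55757 bins of the 5 nuclear chromosomes outside the rDNA repeats, out of 57094 bins in the whole table. A bin was taken when the mean of the *nrpe1-11* libraries was at least 10 RPTM (mapped reads scaled to 10000000 per library) and at least 4 times the WT mean plus 1 RPTM, and when the lowest *nrpe1-11* library was above the highest WT library. The excess over WT in *nrpe1-11* is therefore a property of the selection and was not tested. What the selection did not use are the levels in *pkl-1* and *nrpd1-3*, the positions within the nuclear chromosomes outside the rDNA repeats, the annotation and the sequence.

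Small RNA from 2-week-old seedlings grown on MS plates was sequenced in 4 genotypes, with 3 biological replicates of each. They were WT, *pkl-1* (a mutant of the CHD3 chromatin remodeler PICKLE, PKL), *nrpd1-3* (a mutant of the largest subunit of Pol IV) and *nrpe1-11* (a mutant of the largest subunit of Pol V). Each mutant was represented by 1 allele, whole seedlings were pooled as tissue, and no double mutant was sequenced, so whether the siRNA gained in *nrpe1-11* required Pol IV was not tested. The libraries held 5598380 to 12390784 mapped reads, and 24-nt reads in nuclear bins outside the rDNA from 51801 in an *nrpd1-3* library to 1414899 in a WT library.

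In RNA-directed DNA methylation (RdDM), Pol IV makes short transcripts that are copied into double-stranded RNA and cut by DCL3 into 24-nt siRNA. The siRNA, bound by AGO4-clade proteins, pairs with scaffold transcripts of Pol V at the target, where DRM2 then methylates cytosines. Pol V thus acts downstream of siRNA production, but at many loci siRNA also falls in Pol V mutants because methylation feeds back on Pol IV.

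The sequences of 3 sets of members carry the results below. The member with the highest *nrpe1-11* level lay in intergenic DNA of chromosome 1, and it is shown together with the bin that follows it because the 2 bins changed in opposite directions. The sequence is the plus strand of chr1:23140501-23140700 in TAIR10, the member is its first 100 bases, and the capitals mark a pair of 20-base arms that match each other as reverse complements at 18 of 20 positions, as in the stem of a hairpin.
Highest member and next bin: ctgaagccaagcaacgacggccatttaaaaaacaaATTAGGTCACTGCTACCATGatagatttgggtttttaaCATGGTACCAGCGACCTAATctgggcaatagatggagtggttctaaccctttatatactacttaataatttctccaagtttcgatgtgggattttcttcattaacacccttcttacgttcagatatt

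The second member by *nrpe1-11* level, chr4:6787101-6787200, lay in the miRNA gene MIR5020b. It is shown on the minus strand, from which the gene is transcribed, with the annotated mature miRNA (chr4:6787108-6787128) in capitals, followed by the mature miRNA with bases 2 to 8, the seed, in capitals. Both are written as DNA.
MIR5020b bin: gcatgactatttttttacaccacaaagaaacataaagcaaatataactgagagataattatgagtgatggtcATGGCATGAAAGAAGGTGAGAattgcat
miR5020b: aTGGCATGaaagaaggtgaga

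Members also came from copies of 1 sequence. The highest bins of the pair of loci with 96.4% identity over 1262 bp on chromosome 3 are shown on the plus strand, chr3:11480101-11480200 first and chr3:11470901-11471000 second, with runs of 20 or more shared bases in capitals.
Chr3 copy with 11 members: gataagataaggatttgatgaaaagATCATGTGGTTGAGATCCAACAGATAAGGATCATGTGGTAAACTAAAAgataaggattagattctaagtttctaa
Chr3 copy with 7 members: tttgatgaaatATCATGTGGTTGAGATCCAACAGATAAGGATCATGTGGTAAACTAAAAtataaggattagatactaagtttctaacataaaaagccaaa

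In a family of 4 loci, the capitals mark runs of 14 or more bases that the highest bin on chromosome 4 (chr4:4340401-4340500, plus strand) shares with the others. The others are chr1:14192501-14192600 on the plus strand, and chr1:16286601-16286700 and chr1:16298601-16298700 on the minus strand.
Chr4 locus: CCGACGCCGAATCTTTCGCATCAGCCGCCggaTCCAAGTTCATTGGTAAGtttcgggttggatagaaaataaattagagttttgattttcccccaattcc
Chr1 locus, first: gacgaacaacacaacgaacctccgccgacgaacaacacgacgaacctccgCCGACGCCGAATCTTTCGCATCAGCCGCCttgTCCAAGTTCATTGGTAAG
Chr1 locus, second: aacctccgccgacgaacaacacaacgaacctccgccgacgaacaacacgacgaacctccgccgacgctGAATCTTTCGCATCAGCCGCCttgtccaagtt
Chr1 locus, last: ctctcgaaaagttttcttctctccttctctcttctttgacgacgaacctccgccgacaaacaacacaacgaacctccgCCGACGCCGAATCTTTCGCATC

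Over the 205 members, siRNA was low in WT, intermediate in *pkl-1*, at or near 0 in *nrpd1-3* and high in *nrpe1-11*. The median member had 3.23, 2.54 and 2.79 RPTM in the 3 WT libraries. It had 3.97, 7.18 and 8.37 RPTM in the *pkl-1* libraries, 0 in each *nrpd1-3* library, and 19.3, 24.5 and 24.1 RPTM in the *nrpe1-11* libraries. The selection kept WT low and *nrpe1-11* high, so the place of *pkl-1* between them is a description. The WT and *pkl-1* medians did not overlap, and the lowest *pkl-1* median, that of replicate 1, was close to the WT medians. Without this library the mean of the *pkl-1* medians was 7.77 RPTM, against 6.50 ± 2.28 (SD, n = 3) with it and 2.85 ± 0.346 in WT.

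**Figure D1:**
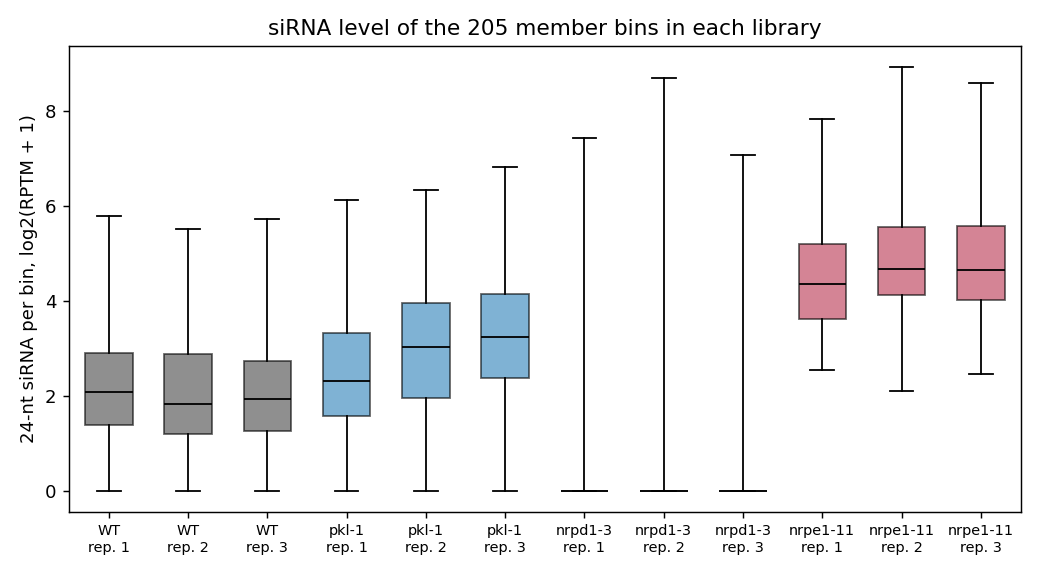
siRNA level of the 205 members in each of the 12 libraries, as log2(RPTM + 1). Boxes span the quartiles, the black line is the median and whiskers reach the lowest and highest member. The *nrpd1-3* medians are 0 and the *nrpe1-11* medians lie between 19.3 and 24.5 RPTM, a height that the selection set.

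At the other nuclear bins the order was different. Their median was 7.63 to 8.37 RPTM in WT and 3.22 to 4.91 RPTM in *nrpe1-11*, so that the members were low in WT relative to the remaining bins. In *pkl-1* and *nrpd1-3* the medians of the other nuclear bins were equal to those of the members in each library (3.97, 7.18 and 8.37 RPTM, and 0). At the median, members and other bins thus differed in the genotypes that the selection used. The members took 0.0921% ± 0.00597 (SD, n = 3) of the nuclear 24-nt signal in WT, 0.254% ± 0.00505 in *pkl-1*, 0.323% ± 0.121 in *nrpd1-3* and 1.59% ± 0.0625 in *nrpe1-11*. The *pkl-1* share was thus 0.260%, 0.253% and 0.250% in the 3 libraries, close together although replicate 1 was low in RPTM. The *nrpd1-3* share rested on 135 to 363 reads per library at all members together, and 506 reads over the 3 libraries were at MIR5020b.

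The size of the excess in *nrpe1-11* is bounded below by the selection. The ratio of the *nrpe1-11* mean to the WT mean plus 1 RPTM ran from 4.0 to 21.3 with a median of 5.23. In WT, 22 members had a mean under 1 RPTM, 115 had 1 to 5 RPTM and 68 had 5 RPTM or more, and the median *nrpe1-11* level of these groups was 13.8, 16.9 and 46.1 RPTM. Most members were thus present at a low level in WT, and 4 had no read in any WT library. The 3 members nearest this limit had ratios of 4.0, 4.02 and 4.03, and the 3 nearest bins below it had ratios from 3.986 to 3.999. The 3 members nearest the limit of 10 RPTM had *nrpe1-11* means of 10.1, 10.1 and 10.5 RPTM, and the 3 nearest bins below it 9.99, 9.92 and 9.91 RPTM.

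Members were selected and measured in the same WT and *nrpe1-11* libraries. The selection was therefore repeated 9 times, each time without 1 WT and 1 *nrpe1-11* library, and the bins were read in the 2 libraries left out. These lists held 210 to 396 bins, of which 148 to 187 were members. The lists share libraries and bins with each other, so they are not independent and are a description. Their median was 3.82 to 4.84 RPTM in the WT library left out and 12.1 to 21.1 RPTM in the *nrpe1-11* library left out, and the latter was higher in 85.1% to 99.0% of the bins. The mean of the *pkl-1* libraries exceeded the single WT library left out in 57.3% to 70.0% of the bins. Neither share was computed over all analysed bins. The *pkl-1* medians of these lists were 2.97 to 3.97 RPTM in replicate 1, 5.74 RPTM in replicate 2 and 6.97 RPTM in replicate 3. The number of members also rested on the scale: with all libraries set to equal nuclear 24-nt totals in place of all mapped reads, the same rule took 2674 bins.

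The comparison of *pkl-1* with *nrpd1-3* used no library of the selection. Of the 205 members, 141 (68.8%) had more siRNA in *pkl-1* at a Benjamini-Hochberg adjusted p under 0.01 in limma, against a background of 74.7% of all 56658 analysed bins. The median difference at members was 2.54 on the log2(RPTM + 1) scale, against 2.61 over all analysed bins, and 2.10 at both when groups without a read were set to the limit of 3 reads over the group. The share was thus near the background. In the opposite direction, 1 member (MIR5020b) was called, against a background of 0.191%.

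In *nrpd1-3*, 128 of the members had no read in any library, and 203 had at most 3 reads in every library. No share over all analysed bins is given for these counts. The median of the other nuclear bins was also 0 in each *nrpd1-3* library, so a low level there was not particular to the members. For a single library, 3 reads correspond to 3.35 to 5.36 RPTM, which is the level that a count of 0 allows. Compared with WT, 109 members were lower in *nrpd1-3*, against a background of 84.6% of bins, and 1 (MIR5020b) was higher, against 0.141%. The members were low in WT by selection, so these counts are a description. The median difference was −1.64 at members and −2.95 over all bins on the log2(RPTM + 1) scale, and −1.03 and −2.41 with groups without a read at their limit.

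In *pkl-1*, the median member lay between WT and *nrpe1-11*, the genotypes that the selection set apart. The *pkl-1* medians of the members were equal to those of the other nuclear bins in each library. The median difference of *pkl-1* from WT was 0.83 at members and −0.31 over all analysed bins on the log2(RPTM + 1) scale. The *pkl-1* mean was above the WT mean at 164 members and at or above the *nrpe1-11* mean at 3, and its median was 25.8% of the *nrpe1-11* mean. The lowest *nrpe1-11* library was above the highest *pkl-1* library at 161 members, which the selection for high *nrpe1-11* levels favoured. All 3 *pkl-1* libraries were above all 3 WT libraries at 68 members, against 9.35% of all analysed bins, and the reverse held at 3 members, against 24.5% of bins. By the limma test 12 members were higher in *pkl-1* than in WT, against a background of 1.98%, and 1 was lower, against 8.20%. The count of 12 depended on single libraries, as it was 23 without *pkl-1* replicate 1, 3 and 5 without *pkl-1* replicates 2 and 3, 7, 5 and 1 without WT replicates 1, 2 and 3, and it was 54 in edgeR with TMM normalization. Since the selection took bins that were low in the WT libraries and high in the *nrpe1-11* libraries, these counts are also a description. The counts of 164, 3 and 161 are given without a share over all analysed bins.

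**Figure D2:**
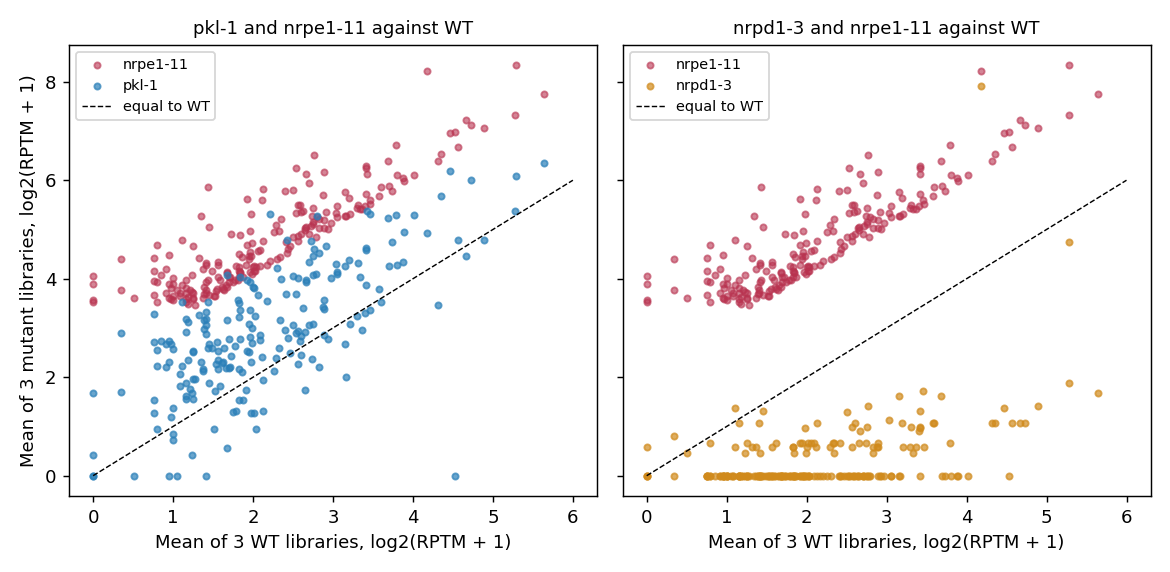
Mean of the 3 libraries of *pkl-1* (left, blue) or *nrpd1-3* (right, ochre) against the WT mean for each of the 205 members, with *nrpe1-11* in red in both panels and all axes as log2(RPTM + 1). The dashed line marks equality with WT, above which the *pkl-1* mean of 164 members lies, and the ochre point near the red ones is MIR5020b.

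The 12 members called higher in *pkl-1* were spread over the 5 chromosomes. The largest difference, 2.89 ± 0.57 (SE) with an adjusted p of 0.000471 in limma, was at chr4:2252001-2252100 in an exon of the pseudogene AT4G04530. It had 5.65, 3.82 and 1.40 RPTM in WT, 9.91, 44.5 and 61.3 RPTM in *pkl-1*, 0 in *nrpd1-3* and 11.3, 27.8 and 19.6 RPTM in *nrpe1-11*. This was one of the 3 members with a higher mean in *pkl-1* than in *nrpe1-11*, and *pkl-1* replicate 1 was the lowest of the *pkl-1* libraries there. It is named here because of its value, and since the WT libraries were low by selection, the difference and its p are a description. Another of the 3 was chr3:14299201-14299300, in a coding exon of AT3G42075, with 24.8, 38.8 and 50.2 RPTM in *pkl-1* and 14.5, 55.6 and 40.6 RPTM in *nrpe1-11*. It had 9.68, 2.54 and 5.58 RPTM in WT and no read in *nrpd1-3*, so that its *pkl-1* mean was at least 26.9-fold higher than in *nrpd1-3*, and the *pkl-1* and WT libraries did not overlap.

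The highest member, chr1:23140501-23140600, lay 3088 bp from the nearest annotated gene. It had 54.1, 31.8 and 27.9 RPTM in WT, 68.4, 60.3 and 71.1 RPTM in *pkl-1*, 23.4, 31.2 and 23.2 RPTM in *nrpd1-3* and 227, 355 and 385 RPTM in *nrpe1-11*. Its 24-nt reads thus persisted in *nrpd1-3*, unlike those of the 203 members with at most 3 reads per library, and WT replicate 3 lay within the range of the *nrpd1-3* libraries. The *pkl-1* level was above the *nrpd1-3* level by 1.34 ± 0.23 (SE) on the log2 scale (limma, adjusted p = 0.00209), but on equal nuclear 24-nt totals the difference was −1.70. Every 24-mer of the bin was unique in the reference genome.

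The next bin, chr1:23140601-23140700, behaved in the opposite way. It had 112, 131 and 147 RPTM in WT, 16.9, 30.1 and 39.0 RPTM in *pkl-1*, no read in *nrpd1-3* and 1.61, 4.91 and 1.50 RPTM in *nrpe1-11*. The mutant libraries were all below the WT libraries, and in limma the difference from WT was −5.27 ± 0.38 (SE) in *nrpe1-11* (adjusted p = 4.25e-05) and −2.21 ± 0.39 in *pkl-1* (adjusted p = 0.000113). In *nrpd1-3* it was at least 92.2-fold lower than in WT. Within 200 bp *nrpe1-11* thus had more siRNA than WT in the bin that holds the fold-back shown in capitals above, and less in the bin beside it.

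**Figure D3:**
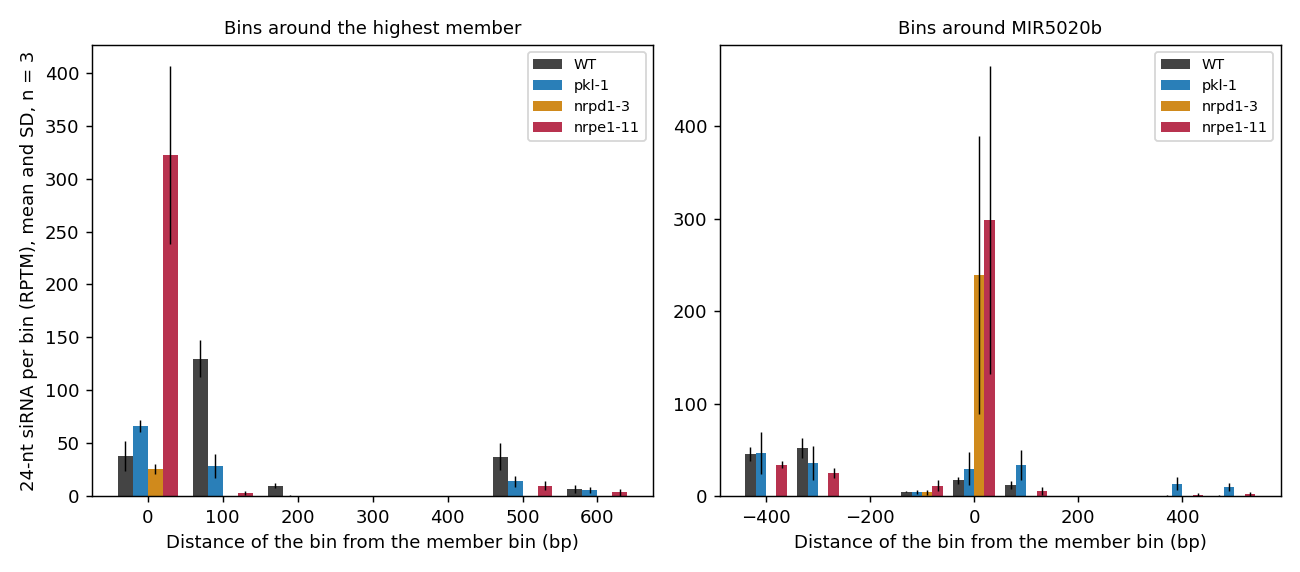
Mean siRNA level (RPTM, bars) with SD (n = 3 libraries) in the tabulated bins around the highest member (left) and MIR5020b (right), by distance from the member bin in bp and by genotype. On the left the red *nrpe1-11* bar is highest at distance 0 and the grey WT bar at the next bin, and on the right *nrpd1-3* and *nrpe1-11* are both high at distance 0.

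MIR5020b (AT4G05855, chr4:6787003-6787153, minus strand) was the one member in a miRNA gene. miRNA genes are transcribed by Pol II and their hairpin precursors are cut by DCL enzymes, without Pol IV. The bin had 17.8, 12.7 and 20.9 RPTM in WT, 19.8, 18.7 and 50.2 RPTM in *pkl-1*, 172, 412 and 134 RPTM in *nrpd1-3* and 158, 482 and 256 RPTM in *nrpe1-11*. The *nrpd1-3* and *nrpe1-11* libraries overlapped each other and were all above those of WT and *pkl-1*. The level in *nrpd1-3* exceeded that in WT by 3.58 ± 0.46 (SE) on the log2 scale (limma, adjusted p = 0.000385), a description since the selection used the WT libraries. In the comparison that it did not use, *pkl-1* was below *nrpd1-3* by −2.95 ± 0.57 (adjusted p = 0.00321), with adjusted p values of 0.0245 and 0.0225 without *pkl-1* replicate 1 or 2. The deposited bins count 24-nt reads, not the 21-nt mature miRNA, and 65.0% of the bin's 24-mers were unique.

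The adjoining bins were lower. The one before it, chr4:6787001-6787100, also in the gene, had 4.84, 5.09 and 4.19 RPTM in WT, 2.97, 2.87 and 6.97 RPTM in *pkl-1*, 3.35, 7.43 and 1.79 RPTM in *nrpd1-3* and 17.7, 9.81 and 6.02 RPTM in *nrpe1-11*. It thus kept reads in *nrpd1-3*, and its *nrpe1-11* libraries were above those of WT. The following bin, chr4:6787201-6787300, had 11.3, 16.5 and 8.37 RPTM in WT, 19.8, 30.1 and 51.6 RPTM in *pkl-1*, no read in *nrpd1-3* and 4.83, 9.81 and 1.50 RPTM in *nrpe1-11*. The other annotated genes of this name, MIR5020a and MIR5020c, were in the table as well. The higher bin of MIR5020a had means of 10.4 RPTM in WT, 0.744 RPTM in *nrpd1-3* and 10.1 RPTM in *nrpe1-11*. The first bin of MIR5020c had 1.62, 2.95 and 10.2 RPTM in the same genotypes, and its other bin 5.05, 0.595 and 3.73 RPTM.

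Of the 326 nuclear miRNA genes, 181 had an analysed bin within 1 kb and 2 had a member there. The second was MIR8168 (AT2G05815), with 1 member 34 bp and 1 member 187 bp away. The nearer, chr2:5080501-5080600, had 6.46, 8.90 and 8.37 RPTM in WT, 4.96, 1.44 and 9.76 RPTM in *pkl-1*, no read in *nrpd1-3* and 30.6, 44.1 and 39.1 RPTM in *nrpe1-11*. The *pkl-1* libraries there spanned the WT range. The farther, chr2:5080901-5081000, had 0.807, 0 and 1.40 RPTM in WT, 5.95, 7.18 and 1.39 RPTM in *pkl-1*, 0, 0 and 1.79 RPTM in *nrpd1-3* and 20.9, 27.8 and 25.6 RPTM in *nrpe1-11*. No member lay within 1 kb of NRPD1, NRPE1 or PKL, of the listed DNA methylation genes, or of the 6 TAS genes, which give rise to trans-acting siRNA. Of the 46 DNA methylation genes, 16 had an analysed bin within 1 kb and could hold a member, as could the 3 mutated genes and the 6 TAS genes.

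The next member by *nrpe1-11* level, chr4:6886401-6886500, was intergenic and had 50.8, 44.5 and 51.6 RPTM in WT and 214, 196 and 233 RPTM in *nrpe1-11*. It had 51.5, 78.9 and 112 RPTM in *pkl-1* and 0, 2.97 and 3.57 RPTM in *nrpd1-3*. Unlike the highest member, it had at most 3.57 RPTM in *nrpd1-3*, and the *pkl-1* excess over *nrpd1-3* was 4.89 ± 0.66 (SE) on the log2 scale (limma, adjusted p = 0.00069).

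A single member, chr2:2601001-2601100, was called lower in *pkl-1* than in WT. It had 22.6, 25.4 and 18.1 RPTM in WT and 83.8, 126 and 165 RPTM in *nrpe1-11*, but no read in any *pkl-1* or *nrpd1-3* library. Its WT mean was at least 17.8-fold higher than in *pkl-1* and at least 15.6-fold higher than in *nrpd1-3*, with 3 reads over the group as the limit. In limma the difference between *pkl-1* and WT had an adjusted p of 1.18e-06, given as a description because the selection used the WT libraries. The bin was intergenic, 675 bp from AT2G06541.

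**Figure D4:**
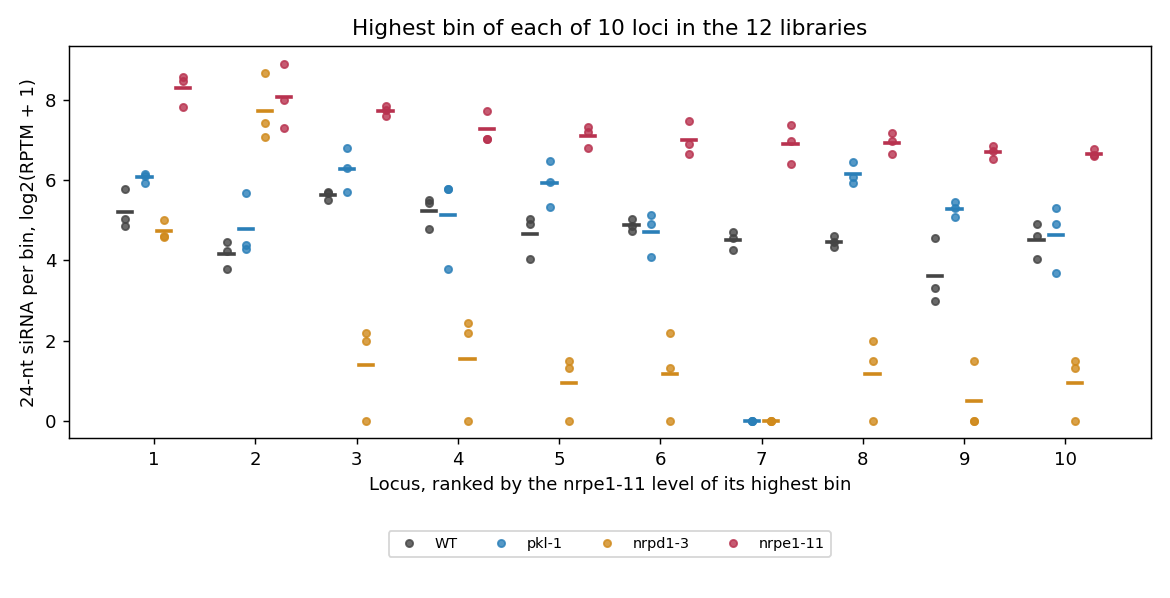
siRNA level of the highest bin of the 10 loci with the highest *nrpe1-11* level, as log2(RPTM + 1), with 1 point per library and a short line at the mean of the 3 log2 values of a genotype. Loci 1 and 2 (the fold-back bin and MIR5020b) keep siRNA in *nrpd1-3*, locus 7 has no read in *pkl-1* and *nrpd1-3*, and at locus 8 the *pkl-1* points lie above those of WT.

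Members at most 300 bp apart were joined into 119 loci. Of these, 86 held 1 bin and 7 held 5 or more bins with 56 members between them. Whether members were more grouped than other bins was not tested. The median number of analysed bins within 500 bp was 7 for members and 3 for the other nuclear bins. Reads that cross a border count in both bins, so the 76 members that adjoin another are not independent. Chromosomes 1 to 5 held 38, 48, 61, 20 and 38 members (18.5%, 23.4%, 29.8%, 9.76% and 18.5%). Their shares of the other nuclear bins were 21.5%, 20.1%, 20.9%, 16.1% and 21.3%. The 6 windows of 50 kb with most members held 83 of the members. They were led by chr3:11450001-11500000 with 24 members beside 121 other bins, and chr2:4300001-4350000 with 22 beside 140.

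The pair of copies on chromosome 3 shown above accounted for 18 of the members of the first window. At the higher copy, chr3:11479301-11481200, member means ran from 0.889 to 37.8 RPTM in WT, 3.60 to 40.6 RPTM in *pkl-1*, 0 to 2.68 RPTM in *nrpd1-3* and 13.7 to 158 RPTM in *nrpe1-11*. Its highest bin had 26.6, 42.0 and 44.7 RPTM in WT, 12.9, 54.5 and 54.4 RPTM in *pkl-1*, 0, 4.46 and 3.57 RPTM in *nrpd1-3* and 130, 131 and 214 RPTM in *nrpe1-11*. The matching bin of the other copy had 25.8, 28.0 and 32.1 RPTM in WT, 15.9, 34.4 and 29.3 RPTM in *pkl-1*, 0, 1.49 and 3.57 RPTM in *nrpd1-3* and 119, 99.7 and 179 RPTM in *nrpe1-11*. At both of these bins the *pkl-1* libraries straddled those of WT, with *pkl-1* replicate 1 lowest. At other members of the copies the order differed, and all *pkl-1* libraries were above all WT libraries at 6 of 11 members of the higher copy and 1 of 7 of the other. That order held at 9.35% of all analysed bins. WT was low by selection and bins of 1 locus are not independent, so these counts are a description. In the higher copy 73.2% of the bin's 24-mers were unique and in the other 75.6%, so reads from the shared stretches could not be placed to one copy by sequence alone.

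WT was low by selection in the family of 4 loci as well. There all *pkl-1* libraries were above all WT libraries at 5 of 7 members, against 9.35% of all analysed bins. The highest bin of the family, chr4:4340401-4340500, had 23.4, 19.1 and 20.9 RPTM in WT, 60.5, 67.5 and 86.4 RPTM in *pkl-1*, 0, 2.97 and 1.79 RPTM in *nrpd1-3* and 99.9, 146 and 125 RPTM in *nrpe1-11*. The genotypes did not overlap there, and the *pkl-1* excess over *nrpd1-3* was 5.01 ± 0.54 (SE) on the log2 scale (limma, adjusted p = 0.000295). At the last of the chromosome 1 loci shown above, chr1:16298601-16298700, the *pkl-1* libraries had 7.93, 14.4 and 5.58 RPTM and the WT libraries 11.3, 7.63 and 11.2 RPTM, so that they overlapped. Among all members, 28 loci were alike to another locus (at least 80% identity over 100 bp), in 8 families of up to 7 loci. Other bins were not compared in this way. A 20-base direct repeat within 1 kb was found for 10.7% of members and 10.1% of the other nuclear bins. For a 20-base inverted repeat the shares were 0.976% and 2.08%.

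The other large loci varied in *pkl-1*. The locus chr2:4335801-4337600, which overlaps the pseudogene AT2G10980, held 8 members. In it chr2:4337501-4337600 had 8.07, 17.8 and 19.5 RPTM in WT, 27.8, 48.8 and 37.6 RPTM in *pkl-1*, no read in *nrpd1-3* and 83.8, 57.2 and 63.2 RPTM in *nrpe1-11*, the largest *pkl-1* excess over *nrpd1-3* among the members (5.25 ± 0.28 SE on the log2 scale, limma adjusted p = 8.01e-05). At chr5:13096201-13097300, an intergenic locus of 8 members, the highest bin had 15.3, 29.3 and 32.1 RPTM in WT, 39.7, 61.7 and 89.2 RPTM in *pkl-1*, 0, 1.49 and 1.79 RPTM in *nrpd1-3* and 111, 147 and 159 RPTM in *nrpe1-11*. The *pkl-1* libraries were all above those of WT at both bins, and at 4 of 8 members in each of these loci. At chr1:22163801-22165000, an intergenic locus of 6 members, the *pkl-1* mean was below the WT mean at 3 of them. At chr5:10902701-10904000, with 11 members, of which 4 overlap the pseudogene AT5G28888 and 5 the RNA gene AT5G04875, the order changed within the locus. Its first bin had 33.7, 43.1 and 40.4 RPTM in *pkl-1* against 11.3, 8.90 and 9.77 RPTM in WT, whereas its highest bin had 5.95, 14.4 and 11.2 RPTM in *pkl-1* against 9.68, 15.3 and 8.37 RPTM in WT. All *pkl-1* libraries were above all WT libraries at 8 of the 11 members of this locus, and the *pkl-1* mean was below the WT mean at 1. Within these loci, the counts of non-overlap stand beside 9.35% of all analysed bins. They are a description, since WT was low by selection and bins of 1 locus are not independent.

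The bins around the members were mixed. Of 569 analysed bins within 500 bp that were not members, 110 (19.3%) were higher and 26 (4.57%) lower in *nrpe1-11* than in WT, against 1.02% and 29.4% of all analysed bins. They neighbour bins chosen from the same libraries and share reads with them at borders, so these counts are a description. Their library medians were 5.17 ± 0.377 RPTM (SD, n = 3) in WT, 6.02 ± 2.21 RPTM in *pkl-1*, 0 in *nrpd1-3* and 10.5 ± 2.15 RPTM in *nrpe1-11*. Their *nrpe1-11* medians were thus above their WT medians, by less than at the members.

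By annotation, 111 members (54.1%) were intergenic, against 60.8% of the other analysed nuclear bins. A bin that overlaps several genes was put in 1 class, with miRNA genes first, then protein-coding genes, pseudogenes and the remaining types. The protein-coding class held 51 members (24.9%), against 12.1%, and the pseudogene class 37 (18.05%), against 24.3%. Members that overlap both a protein-coding gene and a pseudogene are thus not among the 37. Bins of 1 locus or of its copies are not independent. At the pair of copies on chromosome 3, all but 1 of the 11 members and all but 1 of the 7 overlapped protein-coding genes. The pseudogene class of the annotation used here includes genes of transposable elements, which were not annotated separately. The median *pkl-1* level was 5.73, 7.29 and 6.21 RPTM in these 3 classes, and the *nrpd1-3* median was 0 in each. Every 24-mer was unique in 70 members (34.1%, against 26.7% of the other bins), and none was in 10 (4.88%, against 9.24%). At these 10 members no 24-nt read has a unique match in the reference used here, although the study's methods keep unique matches, so how their reads were placed is unknown. A fold-back of 20 bases with 18 or more matches lay inside 1 member, the highest one, and in 0.241% of the other bins. This search was made after that sequence had been seen. The median GC content was 37% in members and 36% in the other bins.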

How the data were processed

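According to the paper's methods and the submitters' processing notes (CASAVA 1.8, Trim Galore 0.4.0, BWA 0.7.15, bedtools, edgeR, TAIR10), the authors trimmed reads, removed structural RNA, kept unique matches and counted 24-nt reads per 100-bp bin. The deposited unit is RPTM, a coverage signal of each bin that the authors scaled to all mapped reads. In 1 table, 12 columns were matched to samples by name. Whole reads and mapped totals were recovered from the smallest step of each library, and for *pkl-1* replicate 1 this step, 0.991 RPTM, is so close to 1 that it rests on multiples alone.

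Of 57094 bins, 56658 above 5 RPTM in at least 1 library were analysed. Pairs of genotypes were compared on log2(RPTM + 1) by limma 3.58.1 (lmFit, eBayes with trend, R 4.3.3), two-sided, with Benjamini-Hochberg adjustment over all analysed bins and a threshold of 0.01. The paper used edgeR. Here edgeR 4.0.16 and DESeq2 1.42.0 on recovered reads were alternatives, because the deposited values are normalized. Other alternatives were the pseudocount, filter, scaling, threshold, joint fit, replicate block and libraries left out. Loci were compared by BLAST 2.17.0, and sequences and annotation were taken from RefSeq's TAIR10.1, whose nuclear chromosomes hold every bin. A level of 3 reads per library or group was taken as the limit that a count of 0 allows, which covers counting error only.

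The named bins were the highest bins of the 10 loci with the highest *nrpe1-11* level and of the 5 loci with most members, the 4 loci with the highest *pkl-1* or *nrpd1-3* level, the 3 largest called differences between *pkl-1* and *nrpd1-3* in each direction, members within 1 kb of listed genes, and bins at the limits of the selection, of which the most informative are described. The members and gene lists were chosen with earlier results of these data known.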

Additional observations from a re-analysis of the deposited data

How the results depend on the processing

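The number of members depended most on scaling among the alternatives tried. With equal nuclear 24-nt totals, which raises *nrpe1-11* and *nrpd1-3* relative to WT, 2674 bins in place of 205 met the selection. Then 85 members were higher and 2 lower in *pkl-1* than in *nrpd1-3* (main counts 141 and 1), 50 were higher in *pkl-1* than in WT (main count 12), and 3 were higher and 64 lower in *nrpd1-3* than in WT (main counts 1 and 109). The median log2 difference over all analysed bins moved from 2.61 to 2.21 for *pkl-1* minus *nrpd1-3*, from −0.31 to 0.09 for *pkl-1* minus WT and from −2.95 to −2.15 for *nrpd1-3* minus WT, and at members it became 1.90, 1.03 and −0.89. With 5 RPTM added to the WT mean, 32 bins met the selection, and 70 members had unique 24-mers throughout. Dropping the requirement that libraries not overlap left the number at 205. Among the 70, 46 were higher and 0 lower in *pkl-1* than in *nrpd1-3*, 4 higher and 0 lower in *pkl-1* than in WT, and 0 higher and 31 lower in *nrpd1-3* than in WT.

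For *pkl-1* above *nrpd1-3*, edgeR with TMM called 80 members and DESeq2 75. For *pkl-1* above WT, a threshold of 0.05 called 39, a pseudocount of 0.1 called 4 and of 5 called 28, edgeR with the authors' totals 20, edgeR with TMM 54 and DESeq2 21. For *nrpd1-3* below WT, edgeR with TMM called 42 and DESeq2 37. Leaving out 1 library gave 99 to 124 members for *pkl-1* above *nrpd1-3*, 0 to 1 for *pkl-1* below it, 1 to 23 for *pkl-1* above WT, and 83 to 103 for *nrpd1-3* below WT. Leaving out 1 WT or *nrpe1-11* library gave 196 to 290 members, and leaving out 1 of each, an alternative chosen after seeing the data, gave 210 to 396. With the replicate number as a block, 26 members were higher in *pkl-1* than in WT. Same-numbered *pkl-1* and WT libraries correlated at 0.168, 0.0397 and 0.0622 in their deviations, and differently numbered ones at −0.0994 to 0.0353. The main fit did not pair the libraries, although the same-numbered values were the higher ones. Whether the libraries were paired is not known.

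At named bins, 32 called differences were refitted 547 times, of which 458 kept direction and call, 87 lost the call and 2 reversed. Both reversals were at chr1:23140501-23140600 for *pkl-1* minus *nrpd1-3*, at −1.70 with equal nuclear 24-nt totals and −0.10 with edgeR and TMM. The cause of these shifts was not tested. Many members have few reads in WT, where 3 reads correspond to 2.42 to 4.19 RPTM.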
